A study of Schizosaccharomyces pombe with 6 samples.

Results

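A set of 10 mating genes was followed in growing fission yeast, Schizosaccharomyces pombe: the pheromone genes mfm1 (SPAPB8E5.05), mfm2 (SPAC513.03), mfm3 (SPBPJ4664.03) and map2 (SPCC1795.06), the pheromone exporter gene mam1 (SPBC25B2.02c), the receptor genes mam2 (SPAC11H11.04) and map3 (SPAC3F10.10c), the protease genes sxa1 (SPAC26A3.01) and sxa2 (SPAC1296.03c), and the regulator gene ste11 (SPBC32C12.02). They were chosen by name, with earlier results of these data known, as 10 of the 7016 features in the deposited table. All 10 matched the ASM294v3 reference. The estradiol group was 3 log-phase cultures in rich YES medium at 30 °C given 1 µM beta-estradiol in ethanol for 3 h, and the control group was 3 such cultures given the vehicle. The labels give neither the strain nor its mating type, and the series title concerns a promoter induced by estradiol. The series design calls the cultures biological triplicates.

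Fission yeast has a P and an M mating type. P cells secrete the peptide P-factor, made from Map2, and sense M-factor through the receptor Map3, while M cells secrete the lipid-modified peptide M-factor, made from Mfm1, Mfm2 and Mfm3 and exported by Mam1, and sense P-factor through Mam2. Both receptors act through a shared G protein and MAP kinase cascade. Ste11, an HMG-box transcription factor, switches on the genes of both types and is held low by nutrients through protein kinase A and TOR signalling. Since Mam2 is the receptor of M cells, mam2 was counted here with the M-cell genes, although the choice of genes had filed it with the P-cell genes. The M-cell group thus held 6 genes and the P-cell group 3, with the aspartyl protease gene sxa1 kept in the P-cell group as chosen.

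The 3 M-factor genes are shown by their coding sequences, because mfm2 had the largest change of the set and their likeness bears on how reads could be divided. They come from the RefSeq annotation of ASM294v3 with introns removed, mfm1 within chrI:4917099-4917298 on the plus strand, mfm2 within chrI:2913008-2913184 on the minus strand and mfm3 within chrII:700364-700556 on the plus strand. Capitals mark the bases identical in all 3 when positions are counted back from the stop codon.
mfm1: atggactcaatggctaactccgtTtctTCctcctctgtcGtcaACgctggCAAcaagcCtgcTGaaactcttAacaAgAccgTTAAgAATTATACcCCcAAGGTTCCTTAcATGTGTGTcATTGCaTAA
mfm2: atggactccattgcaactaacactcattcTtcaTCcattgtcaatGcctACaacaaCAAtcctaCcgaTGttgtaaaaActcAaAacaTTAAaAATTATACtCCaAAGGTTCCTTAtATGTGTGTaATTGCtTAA
mfm3: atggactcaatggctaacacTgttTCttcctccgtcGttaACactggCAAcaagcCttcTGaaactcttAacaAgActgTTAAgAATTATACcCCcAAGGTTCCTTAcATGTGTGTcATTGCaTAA
The capitals gather at the 3′ end, which encodes the mature pheromone, and number 56 of 126 positions compared without gaps. mfm1 and mfm3 were the closest pair, with 78.6% of positions identical and a longest shared run of 48 bases between their annotated transcripts. mfm2 stood apart, with 51.2% identity to mfm1 and 53.2% to mfm3, and shared no run longer than 11 bases with either. Reads of 151 bases, as sequenced, were longer than any of these shared runs.

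Sequence upstream of these genes was read for the TR-box, the element bound by Ste11. The search used its core TTCTTTGTT and the shorter TTTGTT within it, on both strands of the 250 bases before each annotated gene start. TTCTTTGTT was found upstream of mfm1, mfm3 and ste11, that is 3 of 10 genes, and in 1.62% of 5112 protein-coding genes. The shorter TTTGTT was found upstream of 8 of the 10 genes and in 44.8% of the same 5112, and mfm2 held it without the longer form. A match is a string of letters, not a measured site, and for mfm3 the annotated start is its start codon. The windows are shown with the TTCTTTGTT match in capitals, at chrI:4916926-4916954 for mfm1, chrII:700190-700218 for mfm3 and chrII:3983239-3983267 for ste11, all on the plus strand. For mfm2, the 150 bases before its start at chrI:2913251-2913400 on the minus strand are shown, with the TTTGTT match on the opposite strand in capitals.
mfm1: gggtccgaccAACAAAGAAgtctcagttt
mfm3: aggcccaaccAACAAAGAAgtctcagatt
ste11: aaagttgaatTTCTTTGTTtgattttcat
mfm2: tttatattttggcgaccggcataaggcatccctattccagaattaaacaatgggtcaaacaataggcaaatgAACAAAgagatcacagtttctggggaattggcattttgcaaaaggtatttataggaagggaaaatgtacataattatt

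Values are FPKM, fragments scaled to gene length and library size, with 1 value per gene and library. The libraries carry the table's column numbers 0, 1 and 2 within each group. Counts were not used here, but the spacing of low FPKM values gave an estimate of about 3130000, 5250000 and 3290000 fragments in estradiol libraries 0, 1 and 2, and of 4560000, 5930000 and 4080000 in control libraries 0, 1 and 2. At that depth mfm1 rested on about 0 to 2.66 fragments per library, mfm3 on 2.19 to 5.04 and map2 on 3.81 to 8.21. A modest difference in these 3 genes was not detectable at this depth. The other 7 genes rested on about 17.0 fragments, for mfm2 in estradiol library 0, to 3165, for sxa1 in control library 1.

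The library kit does not mark strand, so reads of a gene cannot be told from reads of a feature on the other strand. Of the 10 genes, 5 overlapped no other annotated feature, namely mfm1, mfm2, mam2, map2 and sxa1. The M-factor receptor gene map3 was covered over 1755 of its bases, or 99.8%, by the histidine synthesis gene his6 on the opposite strand, which took in 1095 bases of its coding sequence. mfm3 lay wholly within the antisense lncRNA SPNCRNA.1381. Antisense lncRNAs that have no value in the table covered 81.4% of mam1 and 63.9% of sxa2, the lncRNA SPNCRNA.2306 lay over part of sxa2 on its own strand, and 2 antisense lncRNAs lay over parts of ste11. mam1 also shared 48 bases with hbs1, and sxa2 shared 138 with cox4.

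**Figure D1:**
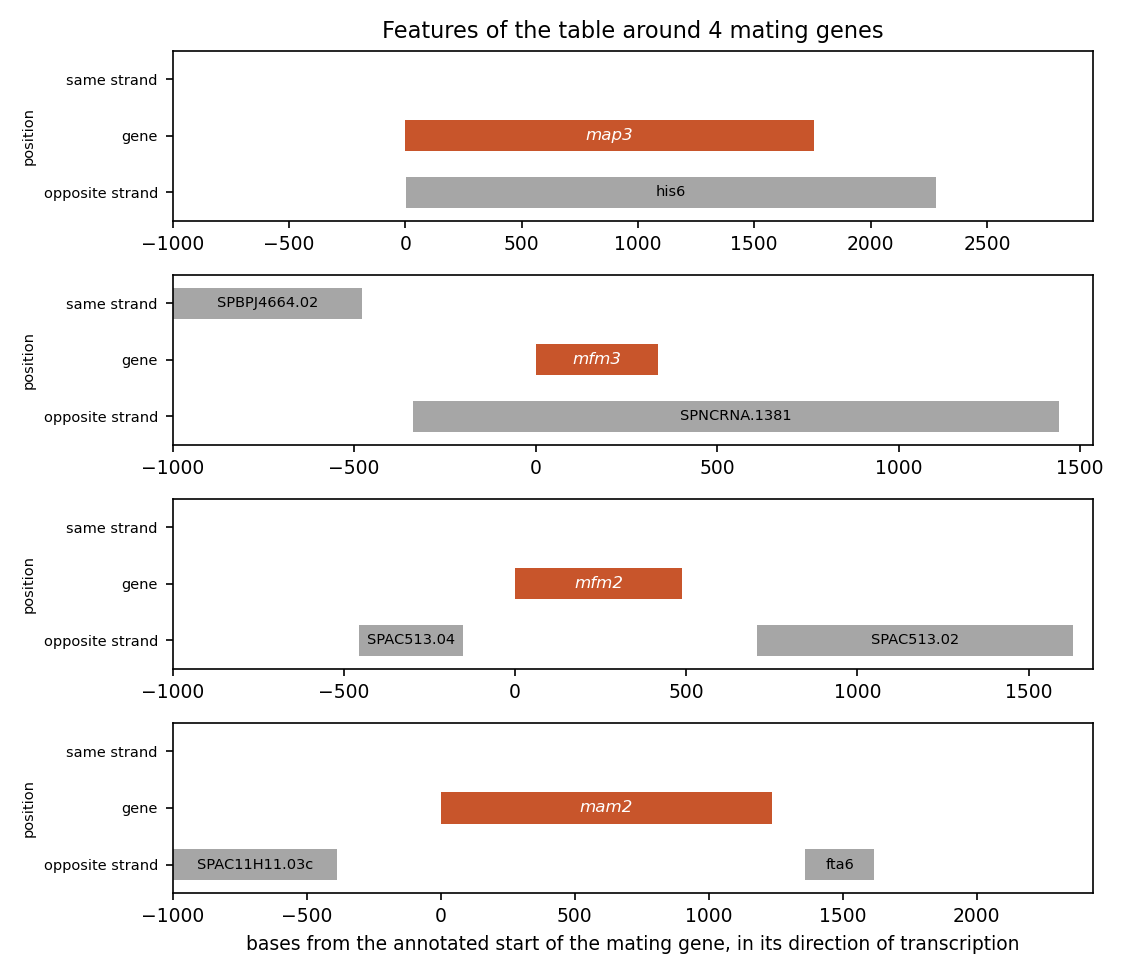
Annotated positions (ASM294v3) of map3, mfm3, mfm2 and mam2 in orange and of the table's features near them in grey, in bases from each gene's start, with the gene on the middle row, features on its own strand above it and on the opposite strand below it, and features cut at the panel edge. map3 is covered by his6 and mfm3 by SPNCRNA.1381, while mfm2 and mam2 are free of overlaps.

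In control cultures the levels of M-cell and P-cell genes were mixed. mfm2 and mam2, genes of M cells, stood well above the P-factor gene map2, while mfm1 stood below it. The P-cell genes map3 and sxa1 were not low, with control means of 25.7 and 279 FPKM, beside 24.8 FPKM for mam2. Reads of map3 cannot be told from those of his6, which covers 99.8% of it on the other strand. sxa1 was counted with the P-cell genes only as chosen. The M-factor gene mfm2 averaged 68.4 ± 26.9 FPKM in control libraries (SD, n = 3), above 74.0% of the 6166 genes that were tested. The P-factor gene map2 averaged 2.78 ± 0.60 FPKM there, above 6.58% of them. Within each control library mfm2 was 15.5, 19.1 and 45.8 times map2. map2 rested on only about 7.62, 8.21 and 4.39 fragments in these libraries, so ratios to it are imprecise. mam2, the P-factor receptor of M cells, was at 26.9, 25.8 and 21.8 FPKM in control libraries 0, 1 and 2, or 7.98 to 10.06 times map2. These are levels per base of gene, and for short transcripts such as that of mfm3, with 270 annotated bases, they depend on the length correction.

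The other 2 M-factor genes were low. In control libraries 0, 1 and 2, mfm3 was at 5.25, 8.95 and 8.68 FPKM, with SPNCRNA.1381 at 17.7, 14.8 and 17.8 FPKM on the other strand. mfm1 was listed at 0, 1.72 and 1.67 FPKM, and its mean over 6 libraries of 1.06 FPKM lay just inside the minimum of 1 FPKM for a test. Of the summed FPKM of the 3 genes, mfm2 made up 90.9%, 83.3% and 90.6% in control libraries 0, 1 and 2.

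map3, the receptor gene of P cells, was at 24.8, 27.0 and 25.3 FPKM in control libraries 0, 1 and 2, close to mam2, with mam2 at 0.863 to 1.08 times map3. his6, which covers it, was at 17.5, 20.1 and 20.8 FPKM in the same libraries. The share of map3 reads that belong to his6 was not tested. sxa1 was by far the highest of the set at 279 ± 10.2 FPKM in control libraries, above 92.8% of tested genes, and sxa2, the M-cell carboxypeptidase gene whose product inactivates P-factor, was at 9.93 ± 0.37 FPKM. mam1 averaged 19.003 ± 2.40 FPKM and ste11 16.6 ± 6.36 FPKM in control libraries. In order of control mean the genes ran sxa1, mfm2, map3, mam2, mam1, ste11, sxa2, mfm3, map2 and mfm1. Of neighbours in that order, the control libraries of map3 and mam2, of mam1 and ste11, and of ste11 and sxa2 overlapped, and the other pairs did not.

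Other markers of both mating types were low. The M-cell agglutinin gene mam3 was at 8.22 ± 1.32 FPKM in control libraries, the P-cell agglutinin gene map4 at 3.84 ± 0.11 and the P-cell MADS-box regulator gene map1 at 4.34 ± 1.29. mat1-Mc, the M-type gene of the mating-type locus, was at 3.84, 5.04 and 2.44 FPKM in control libraries 0, 1 and 2. Its silent copy mat3-Mc is identical to it over all 546 coding bases and was listed at 0 in all 6 libraries, so the division of reads between the copies is uncertain. Of 8 features of the locus in the table, 7 were listed at 0 in every library, among them 4 with identifiers that the reference does not hold. A listed 0 can be a failed estimate. The P-type gene mat1-Pc was not analysed here.

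**Figure D2:**
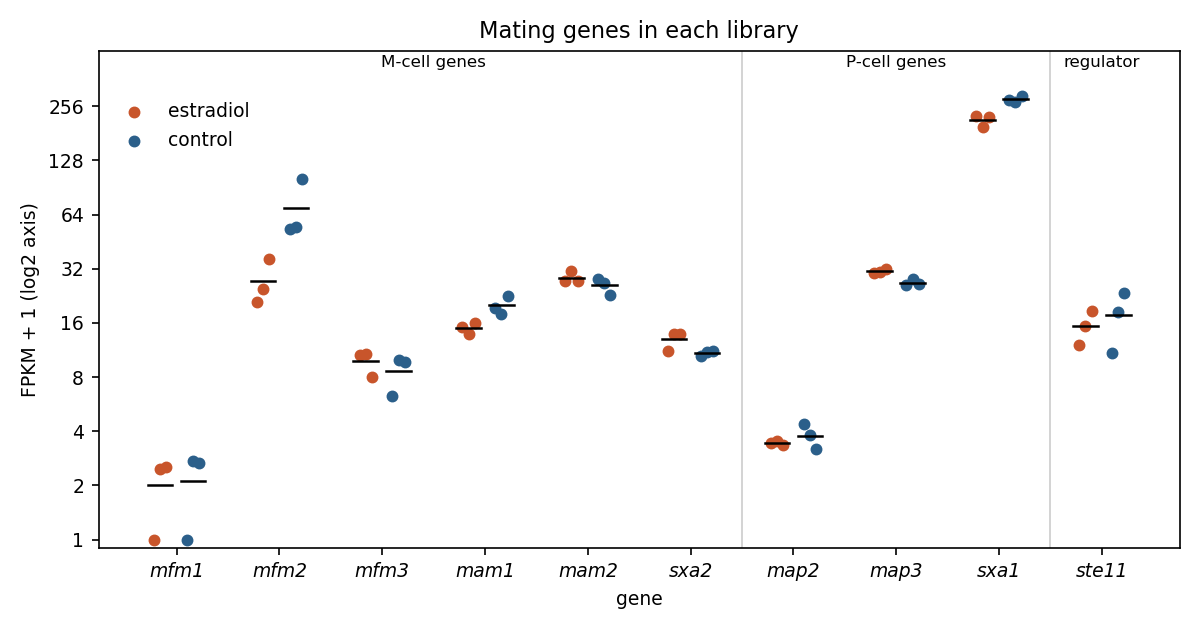
FPKM + 1 on a log2 axis of each of the 10 genes in 3 estradiol libraries (orange, left) and 3 control libraries (blue, right), with bars at the group means. sxa1 is highest and mfm1 lowest, and the estradiol points lie below all control points for mfm2, mam1 and sxa1 and above them for map3.

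With estradiol, the main M-factor gene and a protease gene fell, and 0 of the 10 genes were called higher. All 10 passed the filter and were tested with limma on log2(FPKM + 1) across 6166 genes, with Benjamini-Hochberg adjustment and a call at an adjusted p under 0.05. mfm2 and sxa1 were called lower, that is 2 of 10, against 3.91% of all tested genes called lower and 7.98% called in either direction. At an unadjusted p under 0.05, 3 of the 10 were lower, against 11.5% of tested genes, and 1 was higher, against 14.5%. All estradiol libraries lay below all controls for 3 of the 10, against 14.0% of tested genes, and above them for 1 of the 10, against 17.1%. The median log2 change of the 10 was -0.10, beside 0.02 over all tested genes. The genes were chosen with earlier results of these data known, so these shares are descriptive and were not tested.

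mfm2 was at 19.9, 23.8 and 35.1 FPKM in estradiol libraries 0, 1 and 2, and at 52.3, 53.3 and 99.4 FPKM in control libraries 0, 1 and 2. The groups did not overlap, although the highest estradiol and the lowest control library stood at 35.1 and 52.3 FPKM. Its log2 change was -1.32 with an SE of 0.30, a 95% interval of -2.02 to -0.62 and a limma adjusted p of 0.0428. An exact permutation test gave a 2-sided p of 0.1, as low as 6 libraries in equal groups can go. The call was lost without any one library, with log2 changes from -1.54 to -1.02 and adjusted p from 0.0582 to 0.145. With the library number as a replicate block the adjusted p was 0.00254. In bulk cultures, fewer cells that transcribe a gene and less RNA per cell cannot be told apart.

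The relatives of mfm2 were not called. mfm3 was at 9.57, 9.74 and 7.02 FPKM in estradiol libraries 0, 1 and 2, against 5.25, 8.95 and 8.68 FPKM in control libraries 0, 1 and 2, and the groups overlapped (log2 change 0.20, adjusted p = 0.625). mfm1 was listed at 0, 1.46 and 1.54 FPKM with estradiol, against 0, 1.72 and 1.67 FPKM in controls (log2 change -0.07, 95% interval -1.43 to 1.28, adjusted p = 0.956). rpl302, named after its values were seen, lies 33 bases from mfm1 on the opposite strand. It averaged 384 FPKM with estradiol and 641 FPKM in controls and was called lower (log2 change -0.74, limma adjusted p = 0.00595). Whether its reads reached mfm1 was not tested. The intervals of mfm1 and mfm3 are wide, and the difference between the M-factor genes was not tested. Summed over the 3 genes, M-factor FPKM was 36.0 ± 7.14 with estradiol and 77.1 ± 28.5 in controls (SD, n = 3 each), and the share of mfm2 was 67.5% to 80.4% with estradiol and 83.3% to 90.9% in controls.

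mam1, which exports M-factor, was at 14.2, 12.9 and 14.9 FPKM in estradiol libraries 0, 1 and 2, and at 18.4, 17.0 and 21.6 FPKM in control libraries 0, 1 and 2. All estradiol libraries lay below all controls, and the log2 change of -0.41 (SE 0.11) was not called (adjusted p = 0.0749). With the replicate block it was called, at an adjusted p of 0.0342. The lncRNA SPNCRNA.1533, on the same strand and 303 bases upstream of mam1, was at 3.70, 2.81 and 4.07 FPKM with estradiol and 6.07, 6.78 and 6.09 FPKM in controls. It was named after its values were seen, and it was called lower (log2 change -0.70, adjusted p = 0.0477), though not with the replicate block (0.0596) or without any one library (0.0715 to 0.145).

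The receptor genes were not called in either direction. mam2 was at 26.2, 30.1 and 26.2 FPKM in estradiol libraries 0, 1 and 2, against 26.9, 25.8 and 21.8 FPKM in control libraries 0, 1 and 2. Its groups overlapped, with a log2 change of 0.14 and a 95% interval of -0.10 to 0.39 (adjusted p = 0.429). map3 was at 29.1, 29.7 and 31.0 FPKM with estradiol, above the 24.8, 27.0 and 25.3 FPKM of every control, with a log2 change of 0.21 (SE 0.07) and an adjusted p of 0.105. The covering gene his6 had overlapping groups, with 18.8, 19.7 and 18.98 FPKM with estradiol and 17.5, 20.1 and 20.8 FPKM in controls (log2 change -0.02, adjusted p = 0.914). Of all tested genes, 31.2% had estradiol libraries wholly on one side of the controls, which held for 4 of the 10 mating genes.

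Of the pheromone proteases, sxa1 fell. It was at 226, 195 and 221 FPKM in estradiol libraries 0, 1 and 2, all below the 278, 269 and 289 FPKM of control libraries 0, 1 and 2. The log2 change was -0.38 (SE 0.07, adjusted p = 0.0283), about 0.769 of the control level. The call held without estradiol library 0, at an adjusted p of 0.0368. It was lost without any other library (highest adjusted p = 0.0885) and under quantile normalization (log2 change -0.27, adjusted p = 0.0996). sxa2 was at 10.2, 12.9 and 12.8 FPKM with estradiol and 9.51, 10.07 and 10.2 FPKM in controls, and its log2 change of 0.24 was not called (adjusted p = 0.252).

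The P-factor gene map2 was at 2.45, 2.52 and 2.34 FPKM with estradiol, within the 2.17 to 3.37 FPKM of the controls (log2 change -0.12, 95% interval -0.61 to 0.36, adjusted p = 0.757). The ratio of mfm2 to map2 was 8.12 to 15.0 with estradiol and 15.5 to 45.8 in controls, so mfm2 stayed the higher of the pheromone genes in all 6 libraries. mam2 was 10.7 to 11.9 times map2 with estradiol and 7.98 to 10.06 times in controls. Ratios to map2 are imprecise, as it rested on about 3.81 to 8.21 fragments per library.

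**Figure D3:**
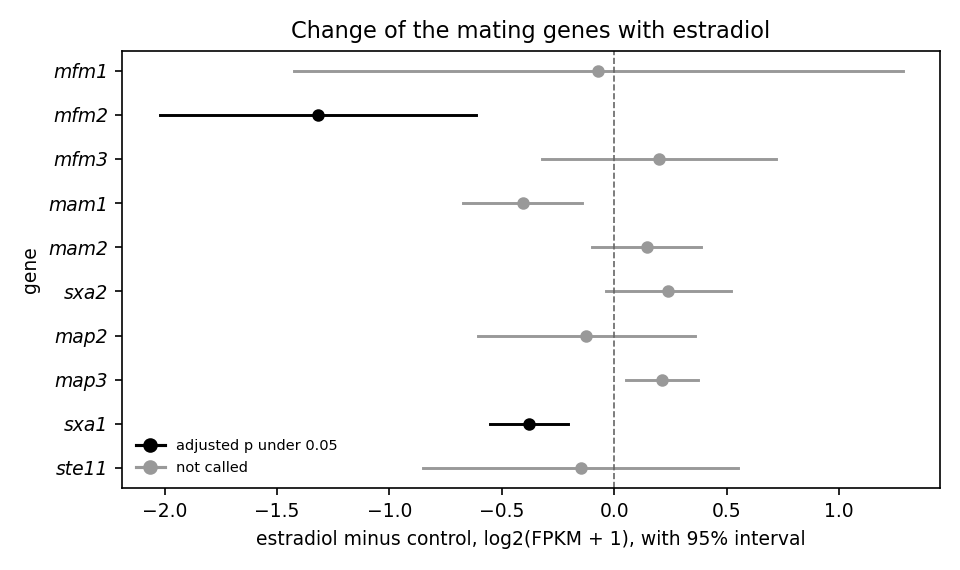
Change of each mating gene with estradiol, as the estradiol minus control difference of log2(FPKM + 1) from limma, with bars for the 95% interval; black marks an adjusted p under 0.05. mfm2 (-1.32) and sxa1 (-0.38) are black, and mfm1 has the widest interval.

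The regulator ste11 was not called. It was at 11.1, 14.4 and 17.6 FPKM in estradiol libraries 0, 1 and 2, and at 9.91, 17.4 and 22.6 FPKM in control libraries 0, 1 and 2. Its spread within a group was larger than the difference between groups, with a log2 change of -0.15 and a 95% interval of -0.85 to 0.55 (adjusted p = 0.801). Without control library 0 the log2 change was -0.46 (adjusted p = 0.288) and without control library 2 it was 0.09.

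Part of the spread ran with library number. In both groups library 2 held the highest value of ste11, of mfm2 and of mam1. That was 3 of the 10 mating genes, or 30%, against 15% of all tested genes. The pattern was noticed after the values were seen, and the shares were not tested. Library 2 was also highest in both groups for 10 of the 40 tested pathway genes, or 25%. Among them was mei2, the gene that starts meiosis and a known target of Ste11. It was at 1.00, 1.80 and 2.96 FPKM in estradiol libraries 0, 1 and 2. In control libraries 0, 1 and 2 it was at 3.28, 7.31 and 12.9 FPKM. Within each number mfm2 was lower with estradiol, by log2 differences of -1.35, -1.13 and -1.48 for numbers 0, 1 and 2. For mei2 these were -1.09, -1.57 and -1.81, and for mam1 -0.35, -0.37 and -0.51. ste11 itself differed in sign, at 0.15, -0.26 and -0.34. mei2 was not called without the block (log2 change -1.49, SE 0.46, adjusted p = 0.0973) and was called lower with it (adjusted p = 0.0129). What a shared number stands for is not stated by the labels, and these are the table's column numbers, not the numbers in the sample titles.

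**Figure D4:**
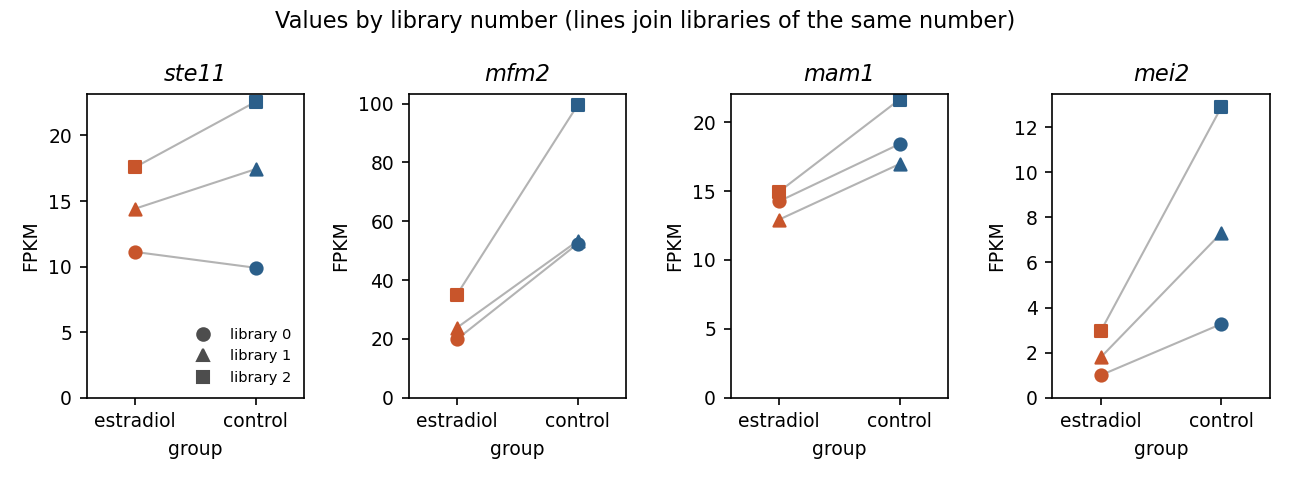
FPKM of ste11, mfm2, mam1 and mei2 in estradiol and control libraries, with lines joining libraries of the same column number. mfm2, mam1 and mei2 are lower with estradiol on all 3 lines, and ste11 on 2 of 3. Library 2 is highest in both groups for all 4 genes drawn, but for only 3 of the 10 mating genes.

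The rest of the mating pathway was examined by lists of 49 features, of which 40 were tested. limma called 4 higher and 2 lower, against 4.07% and 3.91% of all tested genes, and the median log2 change was 0.00 after rounding. These lists too were chosen with earlier results of these data known. Of 11 signalling genes 10 were tested, and ras1, which encodes the Ras GTPase that relays the pheromone signal, rose. It was at 78.8, 86.7 and 87.3 FPKM with estradiol and 60.4, 67.4 and 68.3 FPKM in controls (log2 change 0.36, adjusted p = 0.0331), and its call held only without estradiol library 0 when libraries were left out (highest adjusted p = 0.12). gpa1, the G-protein subunit of the receptors, was at 14.4, 14.7 and 15.5 FPKM with estradiol, below the 15.9, 18.97 and 20.8 FPKM of the controls, and was not called (log2 change -0.30, adjusted p = 0.148). ste6, the Ras exchange factor gene, had a log2 change of 0.02 (adjusted p = 0.918).

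Of 5 genes for pheromone processing, mam4 fell and 4 were not called. mam4 encodes the enzyme that methylates M-factor, and it was at 47.2, 49.1 and 51.4 FPKM with estradiol and 58.1, 68.3 and 70.9 FPKM in controls. Its log2 change was -0.40 (adjusted p = 0.0385), and the call was lost without any library but control 0 (highest adjusted p = 0.127). All 5 log2 changes of this list were below 0, with a median of -0.09, beside a median of 0.02 over all tested genes. The quartiles of single tested genes were -0.11 and 0.18.

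Among 6 genes of adhesion and fusion, tht1 rose and 5 were not called. tht1, whose product acts in nuclear fusion after mating, was at 18.1, 19.96 and 19.6 FPKM with estradiol and 7.47, 8.77 and 9.57 FPKM in controls. No estradiol value came near a control value, and the log2 change of 1.08 (SE 0.11, adjusted p = 0.00589) stayed called without any one library (highest adjusted p = 0.0461). The agglutinin genes mam3 and map4 had log2 changes of 0.00 after rounding and 0.15, neither called (adjusted p = 0.997 and 0.621), and under quantile normalization they had -0.18 and -0.10.

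Of 15 genes that act on ste11 or beside it, gpa2 rose and pcr1 fell. gpa2, the G-protein subunit that links glucose to protein kinase A, was at 88.5, 83.8 and 71.3 FPKM with estradiol and 52.5, 48.3 and 40.6 FPKM in controls (log2 change 0.77, adjusted p = 0.0157). Its call was lost without estradiol library 1 or control library 1 (adjusted p = 0.0758 and 0.0621). pcr1 encodes the bZIP partner of Atf1, which acts on ste11 transcription, and was at 24.4, 24.3 and 25.6 FPKM with estradiol and 31.2, 33.7 and 34.8 FPKM in controls (log2 change -0.41, adjusted p = 0.0208, lost without any library but estradiol 0, highest 0.0869). map1 was not called (-0.15, adjusted p = 0.758). Of 4 genes of meiotic entry 3 were tested, and mei4, a forkhead factor gene of meiosis, rose to 11.036, 12.8 and 14.1 FPKM with estradiol, against 7.48, 5.85 and 7.88 FPKM in controls. Its log2 change was 0.76 (adjusted p = 0.0282), and the call was lost without estradiol library 1 or 2 or control library 0 or 1 (highest adjusted p = 0.107) and under quantile normalization (0.0654). mat1-Mc, the tested feature of the mating-type locus, was at 1.60, 4.54 and 9.76 FPKM with estradiol and 3.84, 5.04 and 2.44 FPKM in controls, and was not called (0.21, adjusted p = 0.846).

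**Figure D5:**
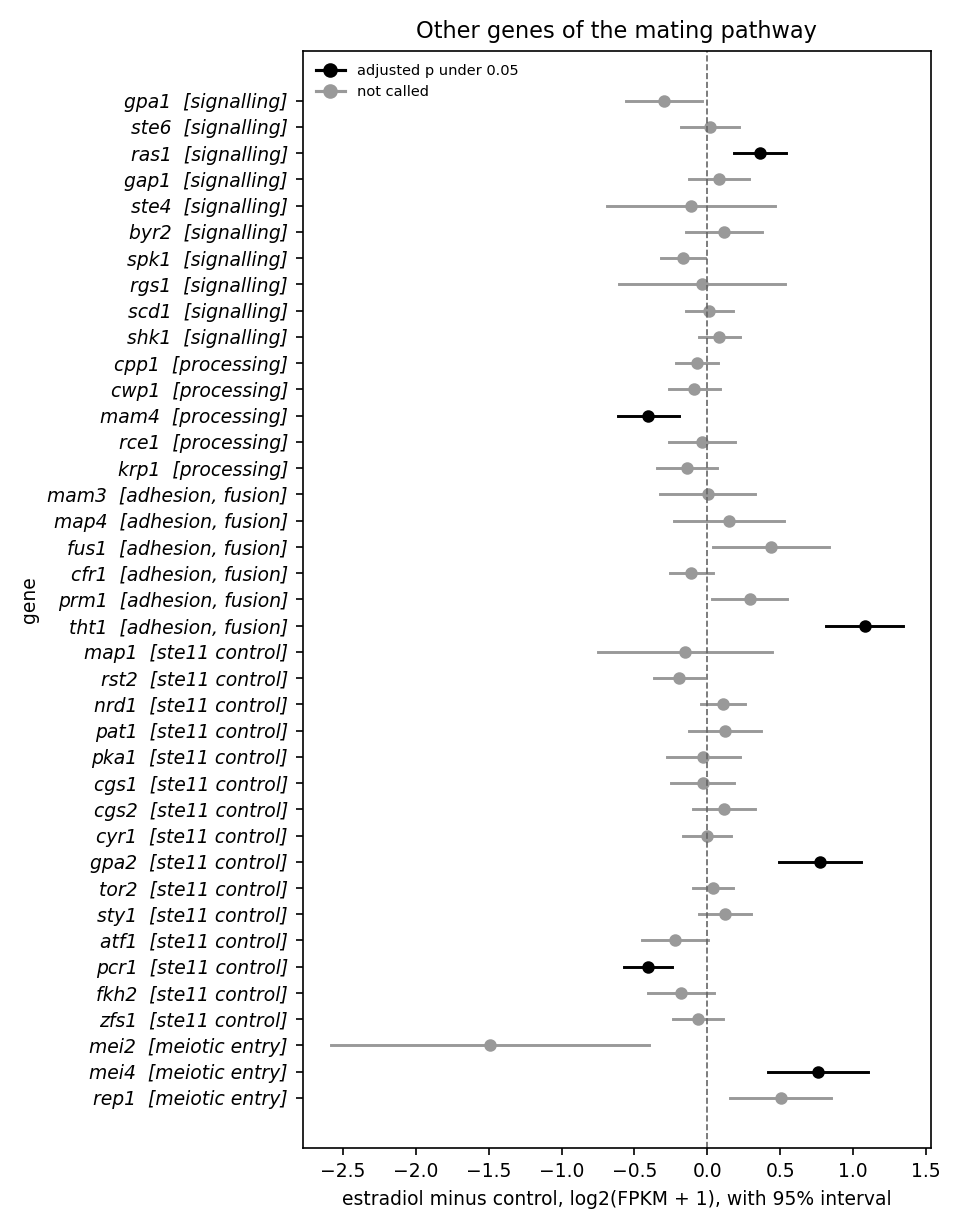
Change with estradiol of the 39 tested pathway genes outside the mating-type locus (mat1-Mc is not drawn), as the estradiol minus control difference of log2(FPKM + 1) with its 95% interval; black marks an adjusted p under 0.05. tht1, gpa2, mei4 and ras1 lie above 0 in black, mam4 and pcr1 lie below 0 in black, and mei2 has the lowest estimate of the genes drawn and, among them, the widest interval.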

How the data were processed

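Ribosomal RNA was removed and libraries from a TruSeq RNA kit were sequenced as paired ends on a MiSeq, per the labels' protocols. The authors deposited FPKM per gene and library. Per the submitters' processing notes, the tools were CASAVA 1.4, TopHat2 and Cuffdiff, with no roles stated. Build and annotation: not given in the sources used here. Columns were grouped by the condition number shared with the sample titles.

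limma 3.58.1 in R 4.3.3 was fitted on log2(FPKM + 1) with an intensity trend for 6166 features with a mean of at least 1 FPKM, 2-sided. It was also run on simulated data with independent noise and no library-number effect, and its error rates there are not reported here. Fold changes of low genes are understated on this scale. The named genes were the 10 members, called genes of the pathway lists, ste6, gpa1, mei2 and map1, features overlapping a member, the markers of both cell types (mam3, map4 and mat1-Mc among them), and the 2 most changed genes of any list with no call; others are marked as chosen after their values were seen. Members and lists were chosen with earlier results of these data known.

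Depth was estimated by matching low values to whole fragments, with gene length reduced by 175 bases. This placed 72.7% of 1392 values within 0.1 of a whole number. The depth and the reduction were chosen to make that share largest on the same values. The 20% expected by chance holds for a setting that was not fitted, so it is not the chance level for this share. Authors' gene models may differ from ASM294v3, so fragment numbers are approximate.

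Deviations from group means correlated at 0.152, 0.212 and 0.146 between same-numbered columns and at -0.149 to -0.011 between the others. Deviations within a group sum to 0, so these correlations are not independent of one another, and they come from the data that the block was fitted to. The labels state no block and do not give the meaning of the column number, so it was used as a replicate block only in an alternative. Others were pseudocounts, filters, scalings, no trend and leaving out each library.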

Additional observations from a re-analysis of the deposited data

How the results depend on the processing

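Over 6166 genes, 251 were called higher and 241 lower, against 144 and 108 under quantile normalization, 506 and 524 with the replicate block, and 42 to 242 higher and 32 to 206 lower when a library was left out. Of the 10 mating genes 2 were called lower, against 1 without the filter on low values, 1 without the intensity trend, 0 under quantile normalization, 3 with the replicate block and 0 to 1 when a library was left out. The pathway lists gave 4 higher and 2 lower calls. The lower calls were 1 without the filter, 1 without the trend and 3 with the replicate block. The higher calls were 5 without the trend, 3 under quantile normalization and 3 at a minimum mean of 10 FPKM. Leaving out a library gave 1 to 4 higher and 0 to 1 lower. The call of mfm2 was lost without the filter (adjusted p = 0.0704), without the trend (0.0675) and under quantile normalization (0.0569), with log2 changes between -1.35 and -1.32. Those of ras1 (0.0566) and mam4 (0.062) were lost without the trend, and that of mam4 also without the filter (0.0529). Besides mam1, mei2 and SPNCRNA.1533, the replicate block changed the call of SPNCRNA.1381 (log2 change 0.32, adjusted p = 0.0485). It changed that of no other named gene, with rpl302 not examined under the block. The cause of these differences was not tested. Depth limits mfm1, mfm3 and map2 most, and these 3 had no value at a minimum mean of 10 FPKM.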

Other observations

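Of 40 tested genes of the pathway lists, 10 had their highest value in library 2 of both groups, or 25%, against 15% of all tested genes. They were the signalling genes gpa1, ras1, gap1, ste4 and rgs1, the processing gene mam4, the regulators rst2 and pcr1, and the meiotic genes mei2 and mei4. This pattern was noticed after the values were seen, and whether the share differs from that of all genes was not tested.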
